A study of Mus musculus with 12 samples.

Results

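MiRNAs were measured in the hearts of non-diabetic mice treated with pargyline and in those of control non-diabetic mice. All arrays titled as control plus pargyline (C + P, 3 arrays) or as control (C, 3 arrays) were taken, which gave 6 of the 12 miRNA arrays of the study. All mice were male, of the strain C57BL6/J, 5 months of age and without any transgene or allele in the sample records. C + P mice received the monoamine oxidase (MAO) inhibitor pargyline at 50 mg/kg per day for 12 weeks, while C mice were controls without it in a study that set pargyline against vehicle, and all mice entered the study at an age of 6 to 7 weeks. Neither group received streptozotocin. The other 6 arrays came from mice made diabetic with streptozotocin at 50 mg/kg per day for 5 days, with pargyline (D + P) or without it (D), and are used only for a short comparison at the end. Each array held labelled RNA of 1 heart, so the spread within a group is that between 3 mice. The comparison asks which cardiac miRNAs differ with pargyline when diabetes is absent.

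MAO-A and MAO-B are flavoenzymes of the outer mitochondrial membrane. They oxidise amines such as noradrenaline and serotonin and release hydrogen peroxide, aldehydes and ammonia. Pargyline blocks both isoforms irreversibly, so it removes a mitochondrial source of hydrogen peroxide in heart muscle. MiRNAs are short RNAs that guide Argonaute proteins to partly complementary sites in mRNAs and lower their stability or translation. Bases 2 to 8 of the mature miRNA, the seed, largely set which mRNAs are recognised, and miRNAs with a common seed form a family. A hairpin precursor can give a mature miRNA from each of its arms, named 5p and 3p.

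The 3 C arrays shared slide 1 and the 3 C + P arrays slide 2. The effects of slide and of pargyline therefore cannot be told apart here. All 6 arrays lay in array row 1. C + P arrays were brighter. The summed signal of detected miRNAs was 35028, 27107 and 31713 scanner units on the C arrays and 57895, 62751 and 89040 on the C + P arrays, a 2.21-fold difference. The scanner software detected 163, 144 and 146 of 1881 miRNAs on the C arrays (151 ± 10.4, SD, n = 3) and 214, 218 and 253 on the C + P arrays (228 ± 21.5, SD, n = 3). Neither measure overlapped between the groups, and each gave p = 0.1 in a two-sided exact permutation test, the smallest value that 3 arrays against 3 allow. The correlation of log2 signals was 0.9893 to 0.9924 between C arrays, 0.9926 to 0.9964 between C + P arrays and 0.9465 to 0.9787 between the groups. Of the 10 control features detected on every array, 9 were also brighter on all C + P than on all C arrays, and their part in the results was not tested.

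The labelled tissue, heart, was checked against defining miRNAs. MiR-1a-3p, miR-133a-3p, miR-208a-3p and miR-499-5p of heart muscle, miR-126a-3p of endothelium, miR-143-3p and miR-145a-5p of smooth muscle, miR-451a and miR-144-3p of red cells and miR-142a-3p and miR-223-3p of leukocytes were detected on all 6 arrays. MiR-122-5p of liver, miR-124-3p and miR-9-5p of brain and miR-375-3p of endocrine cells were undetected on all 6, while the other 3 of 7 miRNAs listed for other tissues, miR-128-3p, miR-192-5p and miR-194-5p, were seen on each C + P array but on none of the C arrays. The source name and tissue of all 12 sample records are heart, but their extraction text names macrophages as the origin of the RNA. The muscle miRNAs detected are ones known from heart, and what share of the RNA came from other cells was not tested.

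The mature sequences of the miRNAs on which the comparison turns are shown first, as RefSeq gives them, 5′ to 3′, with the seed in capitals. Names are those of the array files without the species prefix. The first set holds the miRNAs with the largest rises for which a sequence was at hand.
miR-22-5p: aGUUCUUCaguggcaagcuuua
miR-223-3p: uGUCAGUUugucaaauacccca
miR-15b-5p: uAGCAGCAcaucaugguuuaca
miR-26b-5p: uUCAAGUAauucaggauaggu
miR-125a-5p: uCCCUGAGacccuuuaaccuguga
let-7f-5p: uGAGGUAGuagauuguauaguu
miR-199a-3p: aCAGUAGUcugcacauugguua

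The second set holds miRNAs of the largest falls, to show how their base content differs from the first.
miR-7005-5p: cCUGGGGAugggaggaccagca
miR-5622-3p: cUUAGCUGgguagugguggugc
miR-22-3p: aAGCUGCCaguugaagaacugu
miR-6937-5p: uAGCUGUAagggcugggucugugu
miR-5126: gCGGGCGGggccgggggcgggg
miR-8110: aAGCGUGGauugggggggggg

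The third set holds relatives with the same seed as a miRNA that rose, or with members that moved apart.
miR-26a-5p: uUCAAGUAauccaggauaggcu
miR-30a-5p: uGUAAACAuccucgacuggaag
miR-30c-5p: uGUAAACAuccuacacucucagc
miR-30e-5p: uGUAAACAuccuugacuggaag
miR-497a-5p: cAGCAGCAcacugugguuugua
let-7b-5p: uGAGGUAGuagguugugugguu
miR-98-5p: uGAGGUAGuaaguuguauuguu

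On the mouse build GRCm38.p6, miR-22-5p lies at chr11:75463734-75463755 and miR-22-3p at chr11:75463772-75463793, both on the plus strand and within the long noncoding RNA gene Mir22hg, as arms of the same hairpin. MiR-223-3p lies at chrX:96242884-96242905 on the plus strand within the noncoding gene F630028O10Rik, and miR-15b-5p at chr3:69009775-69009796 on the plus strand within the protein-coding gene Smc4. MiR-26b-5p lies at chr1:74394324-74394344 on the plus strand within Ctdsp1, a gene for a small phosphatase of RNA polymerase II, and miR-125a-5p at chr17:17830817-17830840 on the plus strand within Spaca6. Let-7f-5p has 2 loci, at chr13:48537889-48537910 on the minus strand in no annotated host gene and at chrX:151912353-151912374 on the plus strand within Huwe1. MiR-199a-3p also has 2, at chr1:162217883-162217904 on the plus strand within the spans of Dnm3 and Dnm3os and at chr9:21496498-21496519 on the minus strand within Dnm2. MiR-26a-5p is made from chr10:126995543-126995564 within Ctdsp2 and chr9:119031811-119031832 within Ctdspl, relatives of the host gene of miR-26b.

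Among the miRNAs that fell, miR-7005-5p lies at chr2:180179797-180179818 on the minus strand within Lama5, miR-5622-3p at chr2:152865105-152865126 on the plus strand within Tpx2 and miR-6937-5p at chr12:28679325-28679348 on the plus strand within Adi1. MiR-5126 lies at chr1:84695890-84695911 on the plus strand within Dner and miR-8110 at chr8:89024791-89024811 on the plus strand in no annotated host gene. The table gives the span of each host gene and not whether the miRNA lies in its exon or intron. MiR-1a-3p, miR-466i-5p and miR-7047-5p, which also belong to these sets, are named only.

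In C + P hearts the muscle miRNA miR-1a-3p, the myeloid miR-223-3p, miR-26b-5p, miR-15b-5p and the 5p arm of miR-22 were 2.38- to 3.04-fold higher than in C hearts after normalization, together with members of the let-7, miR-23/24/27 and fibroblast groups. The 3p arm of miR-22, 3 of 4 tested miR-378 members and 2 miR-30 members were lower, though miR-22-3p and the medians of the miR-378 and miR-30 groups were higher without normalization. Levels were compared for the 136 miRNAs detected on all 6 arrays, as log2 signals after cyclic loess normalization, and tested with limma and Benjamini-Hochberg adjustment at a threshold of 0.05. Of these, 88 (64.7%) passed, 45 higher (33.1%) and 43 lower (31.6%) in C + P. Changes ranged from -1.61 to 1.60 on the log2 scale with a median of -0.055 and a median SE of 0.11. A change beyond 0.5 in either direction was seen in 51 miRNAs and beyond 1 in 9. Group ranges did not overlap for 75% of the miRNAs tested.

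Normalization decided the balance of higher and lower calls. Before normalization the median difference over the 136 miRNAs was 1.03, and 111 of them were brighter on every C + P than on every C array. Without normalization 99 miRNAs passed, all of them higher in C + P. Scaling to the 75th percentile gave 33 higher and 47 lower calls. With the authors' normalized values, 15 passed as higher and 39 as lower. All 45 miRNAs that rose were also higher under quantile normalization, 75th percentile scaling and no normalization, but 6 of them were lower with the authors' values. All 43 that fell were lower under quantile normalization and 75th percentile scaling and 42 with the authors' values, while 40 of them were higher without normalization. A fall therefore means here a smaller gain in signal than that of the average miRNA, unless another value is given.

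**Figure D1:**
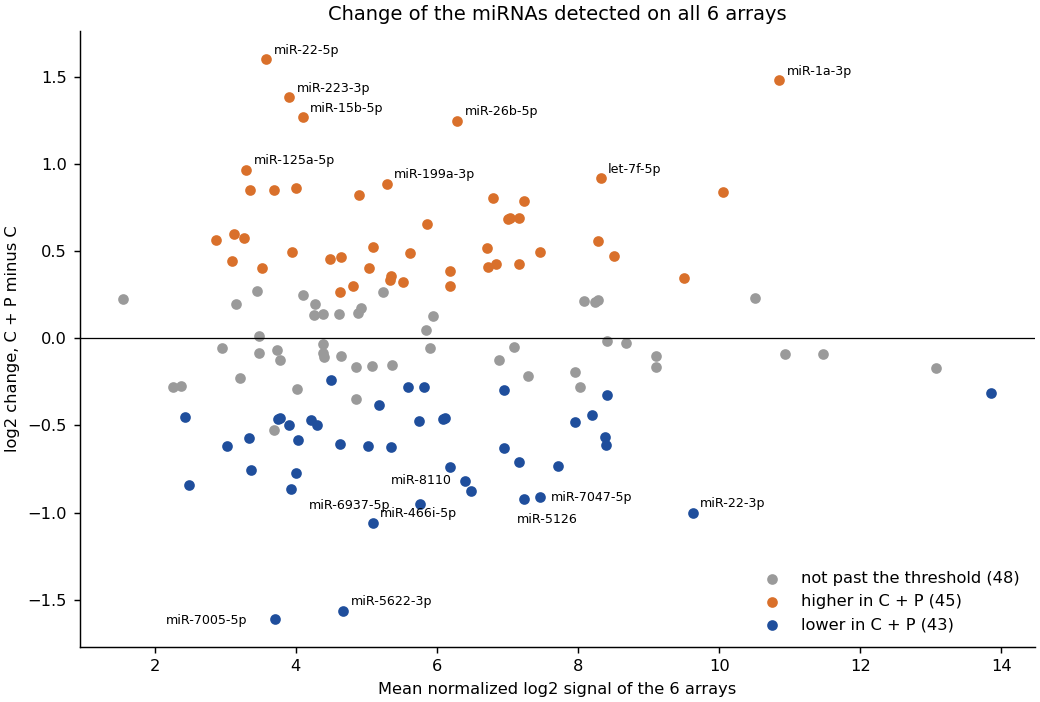
Change of each miRNA detected on all 6 arrays (y axis, log2 of C + P minus C) against its mean normalized log2 signal (x axis). Of the 136 points, the 45 that rose and the 43 that fell are spread over dim and bright miRNAs, with miR-22-5p at the top (1.60) and miR-7005-5p at the bottom (-1.61).

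MiR-22-5p rose most. Its scanner signal was 5.83, 4.46 and 4.55 on the C arrays and 21.3, 26.3 and 46.4 on the C + P arrays. The groups were far apart, with every C + P array above every C array. After normalization its level went from 2.78 ± 0.11 to 4.39 ± 0.13 (log2, SD, n = 3), a log2 change of 1.60 with an SE of 0.11 (limma, adjusted p = 2.2e-05).

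The other arm of the same hairpin, miR-22-3p, a miRNA abundant in heart and skeletal muscle and known for a role in cardiac hypertrophy, had signals of 709, 707 and 689 in C and 835, 714 and 1202 in C + P. Its signals were thus slightly higher in C + P, by less than those of most miRNAs. After normalization it fell by 1.00 ± 0.13 (SE) on the log2 scale (limma, adjusted p = 0.0005), whereas without normalization the difference was 0.35 in the other direction. The ratio of the arms within an array does not depend on scaling by a common factor. However, the C signals of miR-22-5p were not far above the lowest detected ones of those arrays (2.24, 1.73 and 1.93). Dependence of the ratio on signal level was not tested. This ratio of 5p to 3p was 4.74-fold higher in C + P than in C (2.24 on the log2 scale, SD 0.20 in C and 0.33 in C + P), with no overlap between the groups. As these arms were set against each other after their values were seen, the ratio was not tested.

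MiR-1a-3p, the main miRNA of the myocyte programme together with miR-133, had signals of 873, 615 and 681 in C and 3605, 4441 and 6912 in C + P. It rose by 1.48 ± 0.11 (SE) on the log2 scale (2.79-fold, limma, adjusted p = 3.2e-05), and by 1.45 with the authors' values. MiR-133a-3p, which is transcribed together with miR-1a, had signals of 1377, 1131 and 1406 in C and between 2355 and 4236 in C + P. Neither miRNA overlapped between the groups before normalization, but for miR-133a-3p the gain was close to that of the average miRNA, and its normalized difference was -0.09 ± 0.10 (limma, adjusted p = 0.41). The ratio of miR-1a-3p to miR-133a-3p within an array was 2.98-fold higher in C + P, without overlap and untested for the same reason as above.

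MiR-223-3p, an abundant miRNA of neutrophils and monocytes, had signals of 11.5, 4.54 and 5.41 in C and 26.4, 30.8 and 52.4 in C + P. It rose by 1.38 ± 0.24 (SE) on the log2 scale (limma, adjusted p = 0.0013). The C arrays were uneven, with the first of them more than the others, and the SD was 0.57 in C and 0.09 in C + P. MiR-15b-5p, of the miR-15/16 family that targets cell cycle and survival genes, showed the same unevenness, with signals of 12.3, 5.41 and 7.02 in C and 26.8, 35.9 and 59.8 in C + P. Its rise was 1.27 ± 0.21 (SE, limma, adjusted p = 0.0011).

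MiR-26b-5p had signals of 38.8, 31.5 and 37.5 in C and 114, 168 and 276 in C + P, and rose by 1.25 ± 0.12 (SE) on the log2 scale (limma, adjusted p = 0.00012). MiR-125a-5p rose by 0.97 ± 0.09, from signals of 4.48 to 5.39 in C to 15.4 to 26.96 in C + P. For this miRNA the authors' values gave a difference of 0.038. Let-7f-5p rose by 0.92 ± 0.12, from 135 to 175 in C to 467 to 1024 in C + P, and miR-199a-3p by 0.89 ± 0.11, from 19.7 to 21.1 in C to 51.9 to 119 in C + P. On the scanner scale none of the 45 miRNAs that rose overlapped between the groups. With the authors' values miR-22-5p (0.68), miR-223-3p (0.60) and miR-15b-5p (1.14) were higher in C + P without passing the threshold.

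**Figure D2:**
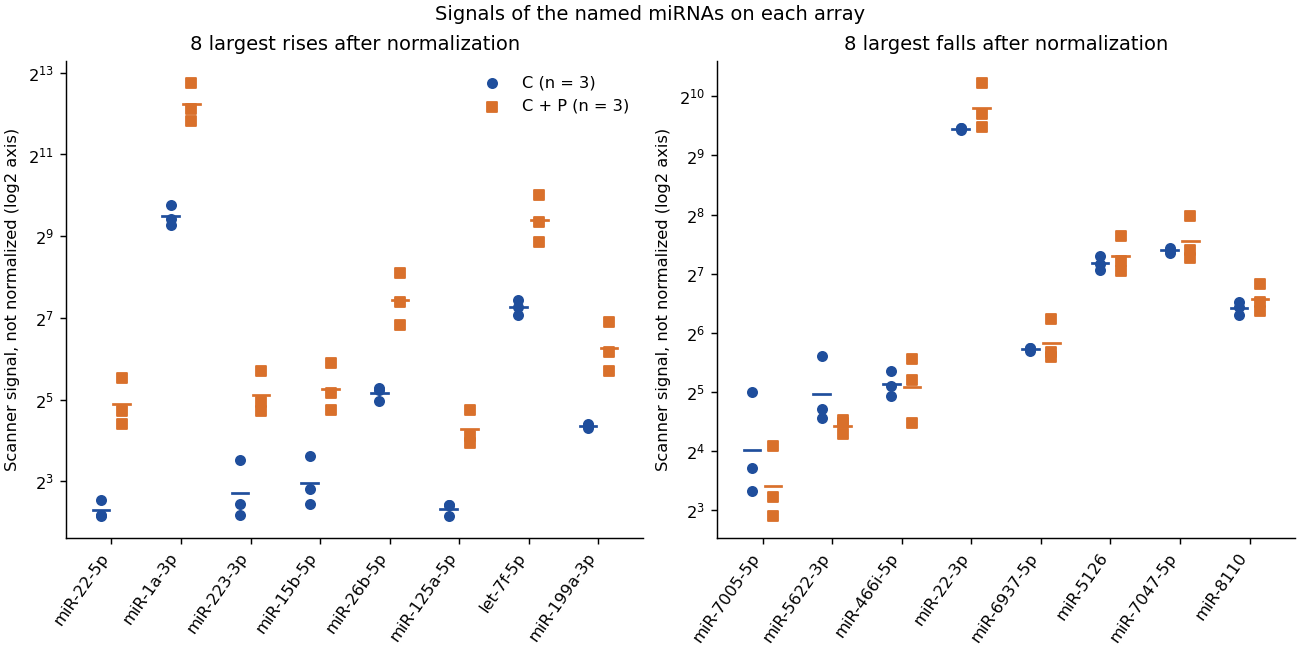
Scanner signal before normalization (y axis, log2 axis) of the 8 miRNAs with the largest rises and the 8 with the largest falls after normalization, on each C array (circles) and each C + P array (squares), with a line at the mean of log2 signals. For the rises all C + P squares lie above the C circles, while for the falls the groups lie close together or overlap, as for miR-7047-5p.

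At the other end of the range, miR-7005-5p had signals of 10.04, 13.1 and 31.9 in C and 9.34, 7.47 and 17.0 in C + P. The scanner signals of the groups overlapped, and the C arrays were uneven (SD 0.91 after normalization). It fell by 1.61 ± 0.38 (SE) on the log2 scale (limma, adjusted p = 0.0062), and by 1.05 without C array 3, its brightest. MiR-5622-3p, with signals of 23.5, 26.2 and 48.6 in C and 22.9, 19.4 and 22.3 in C + P, fell by 1.56 ± 0.29 (limma, adjusted p = 0.0018). All its C + P signals lay below its C signals even before normalization, although C + P arrays were brighter as a whole.

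MiR-466i-5p fell by 1.06 ± 0.15 (limma, adjusted p = 0.00063), from signals of 34.3, 30.6 and 41.1 in C to 22.1, 37.0 and 47.0 in C + P, which overlapped. MiR-7005-5p, miR-5622-3p and miR-466i-5p were the only ones of the 43 to be lower without normalization too, with differences of -0.61, -0.53 and -0.055, and none of these passed the threshold. For miR-6937-5p, miR-5126, miR-7047-5p and miR-8110 the normalized changes were -0.95, -0.92, -0.91 and -0.88, and the changes without normalization 0.11, 0.13, 0.16 and 0.15. The signals of miR-5126, for example, were 142, 134 and 158 in C and 132, 149 and 200 in C + P. Little is known of the roles of these late-numbered miRNAs.

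Scanner signals of 24 of the 43 miRNAs that fell did not overlap between the groups, and those of 19 did. Among the 24, only miR-5622-3p was dimmer in C + P. All others of the 24 were brighter on every C + P than on every C array, opposite to their normalized change. Of all 136 miRNAs, 111 were brighter on every C + P array.

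MiRNAs with the same seed did not always move together. Among the miRNAs with a RefSeq sequence (113 of 136), 14 seeds were shared by at least 2 members, 39 miRNAs in all, and 5 of these seeds had members that rose and members that fell. Within each of these families the seed in capitals above is identical and the remaining bases differ. Near-identical members may share signal on the array, so their separate values are uncertain to that extent. The family and list counts below stand beside 33.1% of all 136 miRNAs that rose and 31.6% that fell.

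MiR-26b-5p and miR-26a-5p have 19 of 21 aligned bases in common, and their family is known for restraining growth and proliferation. MiR-26a-5p had signals of 272, 222.7 and 254 in C and 377, 421 and 648 in C + P. Its gain was below that of the average miRNA, and it fell by 0.33 ± 0.09 (limma, adjusted p = 0.010), but was 0.91 higher without normalization. The ratio of miR-26b-5p to miR-26a-5p within an array was 2.58-fold higher in C + P (1.37 on the log2 scale), without overlap. As this pair was also chosen after its values were seen, the ratio is a description and was not tested.

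In the miR-30 family, abundant in heart muscle and known for targeting autophagy and fibrosis genes, 2 of 5 tested members rose, 2 fell and 1 did not pass. MiR-30b-5p rose by 0.69 and miR-30c-5p by 0.50, while miR-30a-5p (-0.61) and miR-30d-5p (-0.63) fell, although these were 0.62 and 0.41 higher without normalization. MiR-30a-5p signals were 284, 255 and 284 in C and 366, 353 and 583 in C + P. MiR-30e-5p, which differs from miR-30a-5p at 1 of 22 positions, had a normalized difference of -0.20 (adjusted p = 0.10). The median of the family was -0.20, against -0.055 over all 136 miRNAs, and 0.95 without normalization. The ratio of miR-30c-5p to miR-30d-5p was 2.23-fold higher and that of miR-30b-5p to miR-30a-5p 2.15-fold higher in C + P. These pairs join a member that rose and one that fell, so their ratios restate those changes and were not tested.

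Of the let-7 family, which restrains proliferation and is abundant in differentiated tissue, 7 members were tested, 4 rose and 3 did not pass. Of all 136 miRNAs, 33.1% rose. Let-7a-5p (0.47), let-7d-5p (0.69), let-7f-5p (0.92) and let-7g-5p (0.69) rose, and their differences were positive under every scaling used. Let-7b-5p (-0.28, adjusted p = 0.080), let-7c-5p (-0.018) and let-7i-5p (-0.22, adjusted p = 0.087) did not pass. The family's median was 0.47. Let-7f-5p and let-7b-5p, which share 19 of 22 bases, had a ratio 2.39-fold higher in C + P. This pair too was chosen after its values were seen, and its ratio was not tested. MiR-98-5p, with the same seed, was detected on all C + P and no C arrays.

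In the miR-15/16 family 5 of 6 tested members rose (33.1% of all 136 did) and 1 fell, with a median of 0.50. Besides miR-15b-5p, these were miR-322-5p (0.83), miR-16-5p (0.52), miR-195a-5p (0.49) and miR-15a-5p (0.30). MiR-497a-5p, which shares 16 of 22 bases with miR-15b-5p, fell by 0.28 (adjusted p = 0.030) but was 0.76 higher without normalization. Of the miR-23/24/27 clusters, known in angiogenesis and cardiac remodelling, 4 of 5 rose with a median of 0.56, among them miR-27a-3p (0.81), miR-23b-3p (0.79), miR-23a-3p (0.56) and miR-27b-3p (0.41). MiR-24-3p was 0.22 higher without passing (adjusted p = 0.14).

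The miR-378 members, known for a role in energy metabolism, moved the other way, with 3 of 4 lower, where 31.6% of all 136 miRNAs fell. Their median was -0.52, but 0.67 without normalization. They are grouped by name, as the seeds of miR-378b, miR-378c and miR-378d differ. MiR-378a is made from a host gene of mitochondrial biogenesis. MiR-378a-3p fell by 0.73, miR-378d by 0.56 and miR-378b by 0.48. MiR-378a-3p signals were 185, 172 and 201 in C and 209, 220 and 300.97 in C + P, so that the C + P arrays were all above the C arrays by a small step. MiR-378c was not past the threshold (-0.06, adjusted p = 0.67). None of the 3 members of the miR-29 family, which targets collagen mRNAs, passed, with differences of -0.10, 0.21 and -0.03 for miR-29a-3p, miR-29b-3p and miR-29c-3p.

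Smaller groups were mixed. Of 5 tested members of the miR-17-92 cluster and its paralogs, 3 rose, 1 fell and 1 did not pass. MiR-93-5p rose by 0.57, but was 0.61 lower with the authors' values, and miR-106b-5p fell by 0.24, but was 0.81 higher without normalization. In the group of miR-10, miR-99, miR-100 and miR-125 members, 1 of 4, miR-125a-5p, rose, with a median of 0.24 (0.14 without C array 2). MiR-107-3p rose by 0.52 and miR-103-3p differed by 0.18 without passing, though they have 22 of 23 bases in common. MiR-148a-3p (0.47) rose in the group of miR-130, miR-301, miR-148 and miR-152 members, in which the other tested members did not pass. Of 13 miRNAs known to respond to oxidative stress or hypoxia, 3 were tested. All 3 rose, where 33.1% of all 136 miRNAs rose: miR-21a-5p (0.43), miR-27a-3p (0.81) and the p53 target miR-34a-5p (0.36). With 75th percentile scaling 2 of them passed.

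**Figure D3:**
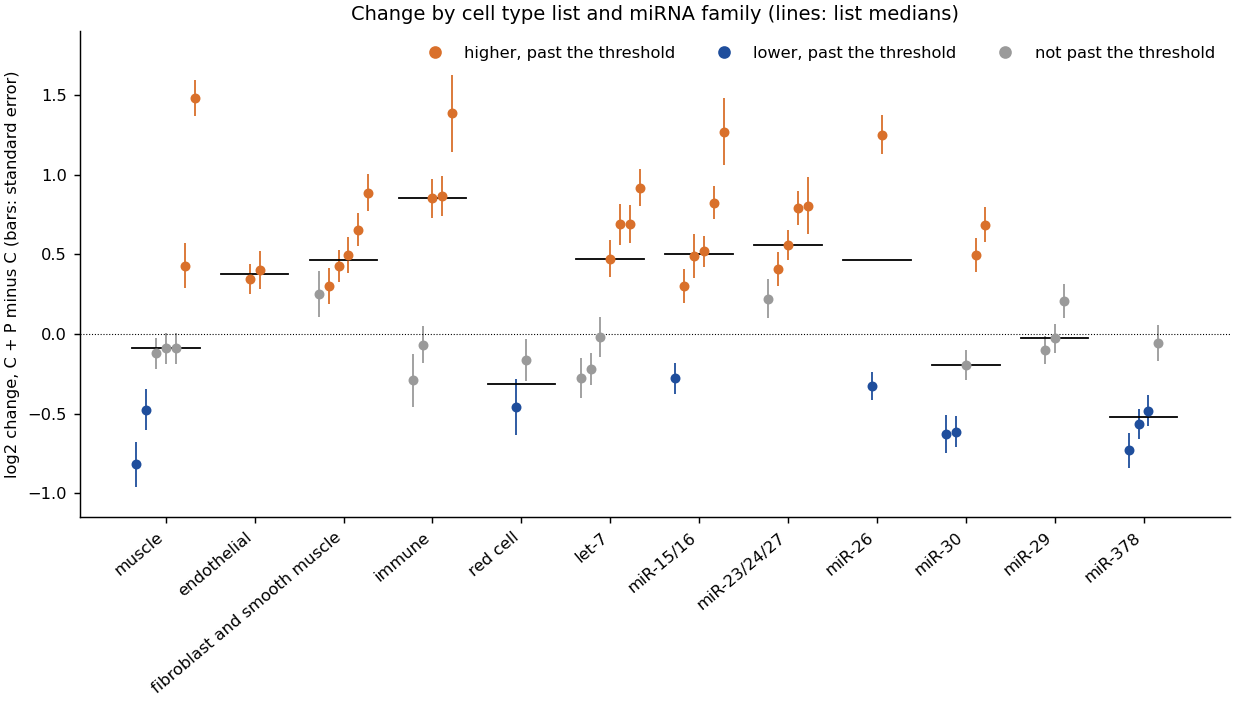
Normalized log2 change (y axis, C + P minus C, bars are SE) of each tested member of 12 cell type lists and families (x axis), with list medians as lines. The miR-26 and miR-30 families hold members on both sides of 0, while all tested miR-23/24/27 members are above 0 and all miR-378 members below it.

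Cell type lists were set beside these families. In bulk hearts a change in the number of cells of a type cannot be told apart from a change in RNA per cell. Of 13 muscle miRNAs 7 were tested, 2 rose, 2 fell and 3 did not pass, with a median of -0.09 (0.03 with 75th percentile scaling and 1.15 without normalization). MiR-1a-3p rose together with miR-499-5p (0.43), encoded in a myosin heavy chain gene. MiR-208a-3p, encoded in the alpha myosin heavy chain gene, fell by 0.47 and miR-486a-5p by 0.82, but these were 0.58 and 0.21 higher without normalization. MiR-133b-3p (-0.09) and miR-133a-5p (-0.12) did not pass. The summed signal of the tested muscle miRNAs was 3714 to 4567 in C and 9927 to 17996 in C + P.

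Of the fibroblast and smooth muscle list of 11, 6 members were tested and 5 were higher, where 33.1% of all 136 miRNAs were higher. The median of the list was 0.46, and 1.49 without normalization. MiR-143-3p, of vascular smooth muscle, rose by 0.65, miR-199a-5p by 0.50, miR-21a-5p by 0.43 and miR-199b-5p by 0.30. MiR-145a-5p, made from the same transcript as miR-143-3p, differed by 0.25 (adjusted p = 0.15). The summed signal of the list was 143 to 182 in C and 384 to 689 in C + P. The endothelial miR-126a-3p (0.34) and miR-92a-3p (0.40) also rose, and they were the tested 2 of 7 endothelial miRNAs. Only 1 of these 2 passed with quantile normalization and 1 with 75th percentile scaling. Their median was 0.37, but 0.06 with the authors' values.

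Of 10 immune cell miRNAs 5 were tested and 3 rose, where 33.1% of all 136 miRNAs rose. These were miR-223-3p, miR-142a-3p of haematopoietic cells (0.86) and miR-146a-5p, a regulator of NF-kappaB signalling (0.85). The last was 0.99 lower with the authors' values. The median of the list was 0.85, but -0.48 with the authors' values and -0.21 when the dimmest 25% of miRNAs were left out. MiR-342-3p (-0.07) and miR-181a-5p (-0.29) did not pass. The summed signal of the tested immune miRNAs was 34.5 to 55.6 in C and 104 to 175 in C + P. Red cell miRNAs were measured alongside. MiR-144-3p fell by 0.46 (adjusted p = 0.046), a call that held only without C array 1 when each array was left out in turn, but was 0.59 higher without normalization, and miR-451a differed by -0.17 (adjusted p = 0.29). The summed signal of these red cell miRNAs was 416 to 431 in C and 686 to 1415 in C + P, and its part in the results was not tested.

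Some of these calls did not hold when 1 array was left out. MiR-499-5p (0.43) was not past the threshold without C array 1 (0.25), C + P array 2 (0.44) or C + P array 3 (0.41), and miR-92a-3p without C + P array 1 (0.27). MiR-15a-5p was not past it without C array 1 (0.31), C array 3 (0.24), C + P array 2 (0.29) or C + P array 3 (0.24), and miR-199b-5p without C arrays 1 (0.33), 2 (0.27) and 3 (0.25) or C + P array 3 (0.20). For the members that fell, miR-497a-5p passed only without C array 3 (-0.34) or C + P array 3 (-0.31) and otherwise lay between -0.27 and -0.21, miR-106b-5p only without C + P array 3 (-0.27) and otherwise between -0.26 and -0.18, and miR-144-3p only without C array 1 (-0.59) and otherwise between -0.55 and -0.30. The other list members called here passed with each array left out in turn, and none changed sign.

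The study grouped miRNAs that followed diabetes and pargyline into a first cluster, higher in D, and a second, lower in D. It described both as returned to control levels by pargyline in diabetic hearts. For control hearts it reported no effect of pargyline on either cluster. The calls below use another normalization and test. The clusters were chosen on these arrays, so their direction is not independent evidence. Of 37 miRNAs of the first cluster, 17 were detected on all 6 arrays, with a median of 0.14. Of these 17, 5 rose, 1 fell and 11 did not pass, where 33.1% of all 136 rose. Another 18 were detected on all C + P and no C arrays. So were 43 of the 261 miRNAs detected on at least 1 of the 6 arrays (2.29% of all 1881). All 37 cluster members were among the 261, so that is the closer base. Of 11 miRNAs of the second cluster, all detected on all 6 arrays, 9 fell and 2 did not pass, where 31.6% of the 136 fell, with a median of -0.56 that became 0.62 without normalization. The 9 included miR-378a-3p, miR-30a-5p, miR-30d-5p and miR-26a-5p, and also miR-1895 (-0.60), miR-7082-5p (-0.59) and miR-6931-5p (-0.49).

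Among the 7 miRNAs also measured by qRT-PCR, 5 were detected on all 6 arrays. Let-7f-5p and miR-27a-3p rose. MiR-27a-3p had signals of 86.1, 46.9 and 51.0 in C and 160, 184 and 318 in C + P (0.81 ± 0.18, limma, adjusted p = 0.0048). The study counts miR-27a-3p among miRNAs that pargyline altered in diabetic hearts and not in control hearts. Its qRT-PCR values were not analysed here. MiR-133a-3p (-0.09), miR-185-5p (-0.16, adjusted p = 0.16) and miR-152-3p (0.14, adjusted p = 0.26) did not pass. The difference of miR-133a-3p was -0.56 and passed the threshold with quantile normalization. MiR-193a-3p was undetected on the C arrays and had signals of 4.26, 4.66 and 11.1 on the C + P arrays, while miR-193b-3p was detected on 1 C + P array.

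Detection itself differed. In all, 261 miRNAs were detected on at least 1 of the 6 arrays. Of the 1881 on the array, 43 (2.29%) were detected on all 3 C + P and on no C array, and 0 on all 3 C and on no C + P array. Detection on every C + P array and on 1 or 2 C arrays was seen for another 26. Detection on C arrays alone was seen for 6 miRNAs, each on 1 array. The 43 were dim, with signals of 2.24 to 37.4 and a median of their means of 6.25, where the lowest detected signal was 2.24, 1.73 and 1.93 on the C arrays. When their C + P signals were lowered by the median difference of the 136 miRNAs, the mean of 33 stayed above 2.24, and 14 did so on every array. The 43 were chosen for their detection in C + P, and an undetected miRNA need not lie below 2.24. These counts are thus a description without a test.

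The brightest of the 43 was miR-126a-5p, the second arm of the endothelial miR-126a hairpin, with signals of 18.4, 17.2 and 37.4 in C + P. Ratios were taken to the lowest detected signal of each C array, after normalization. This floor is the signal of another miRNA, and an undetected miRNA need not lie below it, so the ratios are no bounds on a fold change. The C + P level of miR-126a-5p was 4.08 times this floor, that of the let-7 relative miR-98-5p 3.78 times, of miR-350-3p 2.62 times, of miR-10a-5p, of a Hox gene cluster, 2.47 times and of miR-140-5p, known from cartilage, 2.33 times. MiR-6360, miR-20b-5p and miR-128-3p followed with 2.22, 1.99 and 1.96 times. For 21 of the 43 the ratio was above 1, and for the others none is given. Since the 43 were chosen for detection in C + P alone, these ratios are a description without a test.

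Members of the cell type lists were found among the 43. They included miR-10a-5p and miR-126a-5p of the endothelial list, miR-142a-5p and miR-155-5p of the immune list, miR-208a-5p of the muscle list and miR-486a-3p and miR-486b-3p of the red cell list. MiR-128-3p, miR-192-5p and miR-194-5p, known from brain, liver and gut, were also among them. On the arrays of diabetic mice, 31, 25 and 19 of the 43 were detected in D and 16, 36 and 39 in D + P. Every D array, all on the slide of the C arrays, detected 17 of the 43, and no D array detected 11.

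**Figure D4:**
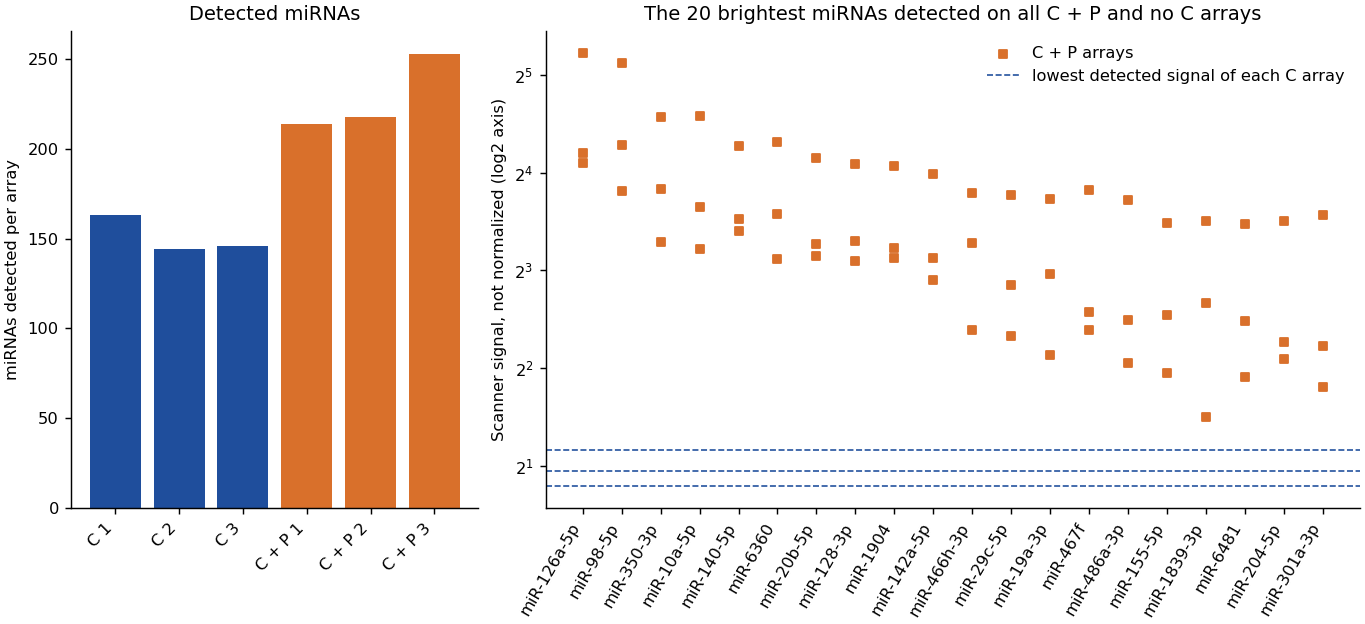
Left, number of miRNAs detected on each array (bars from 0). Right, scanner signal before normalization (y axis, log2 axis) of the 20 brightest of the 43 miRNAs detected on all C + P and no C arrays, with the lowest detected signal of each C array as dashed lines. C + P arrays stand at 214 to 253 detected miRNAs against 144 to 163 in C, and miR-126a-5p is highest on the right.

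The sequences above differ in base content between rises and falls, and this was followed over all miRNAs with a RefSeq sequence, after the values had been seen and thus without a test. Over 113 miRNAs, which share arrays and labelling, the G + C content of the mature miRNA and its log2 change had a Pearson r of -0.48 and a Spearman rho of -0.50. Of 49 miRNAs under 50% G + C, 28 rose, 8 fell and 13 did not pass, with a median of 0.34. Of 64 with at least 50%, 12 rose, 26 fell and 26 did not pass, with a median of -0.14. The order was the same with quantile normalization (0.34 and -0.19), 75th percentile scaling (0.28 and -0.25), no normalization (1.41 and 0.87) and the authors' values (0.19 and -0.64). A G + C value for the 43 miRNAs that fell, or for the 43 gained, is not given, since under 80% of either set matched a sequence.

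MiRNAs with a number of 1000 or more in their name, mostly known from sequencing and few of them studied, were 44 of the 136. Of these 3 rose, 25 fell and 16 did not pass, with a median of -0.45 (0.58 without normalization). Of the other 92, 42 rose, 18 fell and 32 did not pass, with a median of 0.22. The median G + C content was 66.7% and 45.5%, so name number and base content were not separate.

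**Figure D5:**
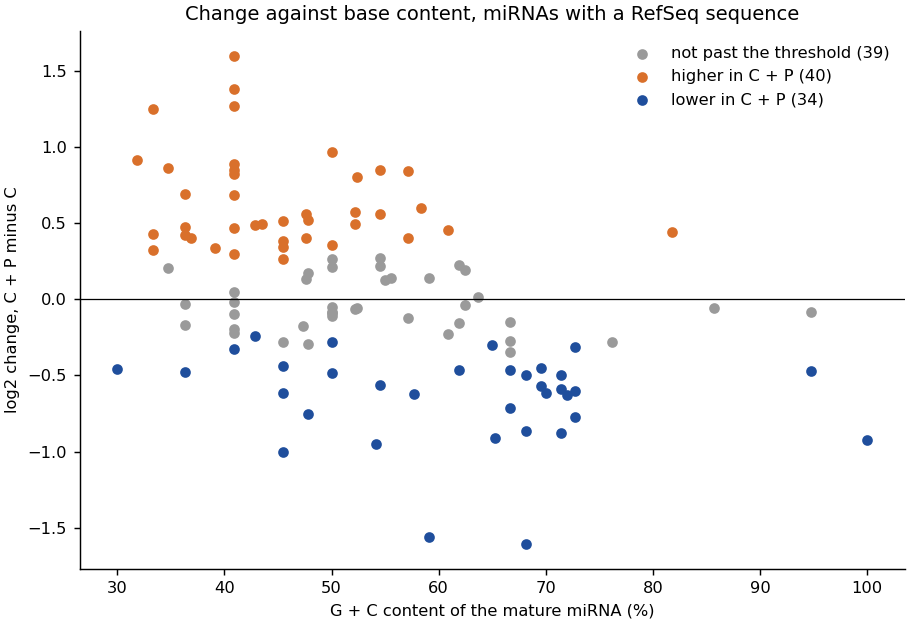
Normalized log2 change (y axis, C + P minus C) against the G + C content of the mature miRNA (x axis, percent) for the 113 miRNAs with a RefSeq sequence. Most miRNAs that rose lie under 50% and many that fell lie above 60%, with miR-5126 at 100%.

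The same treatment in diabetic hearts was set beside these values. D + P against D lies on the same pair of slides as C + P against C and shares no array with it. The D and D + P arrays all lay in array row 2, and the C and C + P arrays in row 1. A slide effect that differs between rows therefore cannot be told apart from a difference of the responses. In a fit of all 12 arrays over the 128 miRNAs detected on each of them, 47 (36.7%) passed for C + P against C, and 69 (53.9%) passed for D + P against D. Of the 84 miRNAs of the 6-array calls that could be followed, 78 had the opposite sign in D + P against D and 6 the same sign. Of the 44 that rose in C + P, 25 fell and 2 rose in D + P. Of the 40 that fell in C + P, 24 rose and 1 fell in D + P. Shares over all 128 miRNAs are not given for these signs, so the reversal is not shown to be particular to the called miRNAs. The difference of the responses, tested as an interaction, passed for 90 of 128 miRNAs (70.3%), 45 in each direction. MiR-1a-3p, higher in C + P than in C by 1.48, was 0.71 lower in D + P than in D (adjusted p = 0.042). MiR-22-3p was 0.54 higher in D + P (adjusted p = 0.057).

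Overall signal and base content were also compared in diabetic hearts. The summed signal lay between 48104 and 61254 on D arrays and between 39661 and 58631 on D + P arrays. These ranges overlapped, and the pargyline arrays were not the brighter ones there. Over 108 miRNAs the correlation of G + C content with the change in D + P against D was 0.50, of the opposite sign to that in C + P against C. The medians there were -0.38 under 50% G + C and 0.32 at or above it. Of the 9 control features brighter in C + P, 7 had a lower mean in D + P than in D. The part of overall signal, base content and labelling in either comparison was not tested.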

How the data were processed

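Total RNA of hearts was labelled with Cy3 (200 ng per labelling in the sample records, another amount in the published methods) and hybridised to Agilent mouse miRNA arrays of 1 colour. The deposited values of an array are the total intensity per miRNA over its probes, for 1881 miRNAs, and a detection flag that is 1 for a detected miRNA. They were not normalized between arrays, and 0.1 stands for an undetected miRNA. A table of the authors' normalized intensities, made by a filter on detection and cyclic loess, served as an alternative. Its log2 values correlated with the scanner values of the same array with r of 0.855 to 0.978 over miRNAs. Its column medians were 18.7 to 31.4 for the 6 arrays, and its offset and settings remain unknown.

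From the scanner intensities, the 136 miRNAs detected on all 6 arrays were log2 transformed, normalized by cyclic loess (span 0.7, 3 iterations) and fitted with lmFit and eBayes of limma 3.58.1 in R 4.3.3. Adjusted p-values are Benjamini-Hochberg values with a threshold of 0.05. Responses in non-diabetic and diabetic mice were compared in a fit of 4 group means over 12 arrays. Detected numbers and summed signals were compared by exact permutation tests. The fit was tested on simulated data with a constant offset per array and as many rises as falls. Effects of signal level or base content that differ between slides were not simulated, so the simulation does not cover them. Ratios, seeds and base content were computed with pandas 2.3.3 in Python 3.11.15 from RefSeq sequences on GRCm38.p6.

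Named miRNAs are up to 8 of the largest rises and 8 of the largest falls among those past the threshold whose groups do not overlap, the 8 gained with the highest mean signal, the 7 of the qRT-PCR, and members of lists. Others, named in families, pairs and base content, were chosen after their values were seen. Of the pairs whose ratio was taken, only miR-199a-3p to miR-199a-5p overlapped between the groups. The groups compared, lists and tests were chosen with earlier results of these data known. Arrays are replicates of separate mice, and their number limits the precision. Equal replicate numbers in the groups mark different mice, and deviations from the group means of same-numbered arrays correlated at -0.17, -0.21 and -0.15, so no pairing was used.

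Alternatives were other normalizations, filters, an added constant, the authors' values, Holm adjustment, the t-test of the methods, and leaving out each array in turn. No 2 arrays were identical. Other assays of the study were not analysed here.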

Additional observations from a re-analysis of the deposited data

Results flagged for a closer look

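The pargyline response of 18 named miRNAs passed the interaction test of the 12-array limma fit between non-diabetic and diabetic hearts, as did 90 of all 128 miRNAs (70.3%). Most of the 18 were chosen for a large change in C + P against C, which is part of the difference tested, so their values are a description and not evidence about them. Here the value is the log2 change in C + P against C minus that in D + P against D. Of the miRNAs that rose in C + P, the difference was 2.03 for miR-22-5p, 2.19 for miR-1a-3p, 2.70 for miR-223-3p, 2.88 for miR-15b-5p, 2.13 for miR-26b-5p, 2.00 for miR-125a-5p, 1.82 for let-7f-5p, 1.66 for miR-199a-3p and 1.11 for miR-27a-3p. MiR-152-3p, which did not pass in C + P against C, differed by 0.64. Among those that fell, the difference was -3.02 for miR-7005-5p, -2.95 for miR-5622-3p, -2.11 for miR-466i-5p, -1.57 for miR-22-3p, -1.65 for miR-6937-5p, -1.41 for miR-5126, -1.69 for miR-7047-5p and -1.38 for miR-8110.

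Control features of the array, which enter no comparison of miRNAs, were brighter on all C + P than on all C arrays before normalization for 9 of 10 features. The log2 difference was 1.74 for hur_6, 1.21 for hur_4, 0.92 for dmr_285, 0.88 for hur_1, 0.75 for hur_2, 0.68 for mr_1, 0.59 for dmr_31a, 0.19 for dmr_6 and 0.12 for dmr_3.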

How the results depend on the processing

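Of 136 miRNAs, 88 passed in C + P against C by the chosen setting, 54 with the authors' normalized values, 38 with Holm adjustment, 4 by the methods' t-test with Holm adjustment (84 at an unadjusted p under 0.05, 68 after Benjamini-Hochberg) and 47 of 128 with all 12 arrays in the fit. The other settings gave counts within 1.5 times. Among them were quantile normalization (85), 75th percentile scaling (80), no normalization (99), an intensity trend (88) and 16 added to the signal (87). Similar counts need not mean the same calls. All 99 without normalization were higher in C + P, and only 45 of the 88 passed there with the same sign. With 1 array left out the count was 75 to 83, that of the gained miRNAs 43 to 59, the difference in detected miRNAs 65 to 84.5, the log2 difference of summed signal 0.95 to 1.26, and the interaction count 76 to 96. With the replicate number as a block, 73 passed in C + P against C and 86 in the interaction.

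Without normalization, and equally with the 75th percentile of all miRNAs, which is the undetected value on each array, the change became 0.35 for miR-22-3p, 0.11 for miR-6937-5p, 0.13 for miR-5126, 0.16 for miR-7047-5p and 0.15 for miR-8110. Under the same settings list medians became 0.88 for red cells, 0.95 for miR-30, 0.67 for miR-378 and 0.62 for the second study cluster. These settings keep the brighter C + P signal, for which slide and pargyline cannot be told apart, and its part in these signs was not tested. The immune median became -0.48 with the authors' values and -0.21 without the dimmest 25% of miRNAs. The median of the miR-17-92 group became -0.014 when miRNAs detected in at least 1 whole group were added and -0.019 without the dimmest 25%. The cause of these was not tested. Signal over background limits the dimmer of the 43 gained miRNAs.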
